A study of Homo sapiens with 42 samples.

Results

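Solute carriers are the largest class of membrane transport proteins. They move amino acids, sugars, nucleotides, vitamins, metals and ions across the surface of the cell and across the membranes of mitochondria, lysosomes and the secretory pathway. Cells that stop dividing while they keep growing still need these nutrients, and several amino acid and glucose carriers are known targets of nutrient and stress signalling. The genes described here were all those whose symbol starts with SLC followed by a number. Of 383 such genes with a probe on the array (564 probes), 166 lay above background and were measured, out of 8917 genes measured in all. Among them were 157 transporter genes, 3 genes named after a transporter (SLC2A4RG, SLC4A1AP and SLC7A6OS), 3 pseudogenes and 3 noncoding RNAs. The other 217 did not pass the filter, and the monocarboxylate carriers SLC16A1 and SLC16A3 and the nucleotide carrier SLC25A6 had no probe in the annotation and were not analysed here.

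The study concerns senescence of melanoma cells after inhibition of the Aurora kinases, which drive chromosome separation and cell division. Total RNA came from 1205Lu, an established human metastatic melanoma line, so a single line stands for the disease. One group received AZD1152 (barasertib, selective for Aurora B) at 0.5 µM and another got 0.05 µM of SNS-314, a pan-Aurora compound, and each was sampled at 6 h (n = 3) and at 12, 18, 24 and 48 h (n = 4). The control was 4 samples at 0 h. No untreated sample of a later time was used here, so the effect of an inhibitor and that of time in culture cannot be told apart. The labels do not say whether replicates were separate cultures, and the p-values rest only on how far these samples spread, possibly for technical reasons.

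The 42 arrays had median signals of 210.0 to 338.6, and 20.5% to 30.4% of their probes lay above background. SOX10 and S100A1, markers of the melanocyte lineage, were above background on 42 of 42 arrays. Of the other markers of that lineage, PMEL, MLANA, TYR, TYRP1 and S100B were above it on none and MITF on 1, and DCT had no probe. S100A1 was called higher at 48 h with AZD1152 and SNS-314 (0.41 and 0.57), as was PDGFRA (0.27 and 0.39), a marker of fibroblasts that was above background on 42 arrays, and their part in the members' changes was not tested. Of the markers of other cells, 1 of 6 for fibroblasts (PDGFRA, the others on 0 arrays), 1 of 4 for keratinocytes (KRT10), 0 of 5 for leukocytes and 0 of 4 for endothelium were measured. AZD1152 18 h replicates 1 and 4 and SNS-314 12 h replicate 4 stood apart, deviating from their group means by 0.255, 0.230 and 0.220 (root mean square, log2) against a median of 0.137. Counts of members at 18 h with AZD1152 and at 12 h with SNS-314 are also given without them, and so are values of named genes at those points where their call or size differed.

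All levels below are log2 normalised intensities, and changes are differences of group means on that scale. A gene was called where limma's moderated test, fitted to all 42 arrays, gave a Benjamini-Hochberg adjusted p under 0.05 over the 8917 genes. Of the 166 members, 115 were above background on every array and 126 on at least 3 of the 4 controls. The other 40 passed the filter only through treated groups, and 0 only through the control, so counts of higher members at 24 h and 48 h are also given for the 126 alone. For those 40 members, p-values in the groups that let them pass are descriptions and no support for a rise.

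At 48 h more solute carrier genes were higher than lower. With AZD1152 48 members were called higher and 23 lower, which is 28.9% and 13.9% of the 166, where 20.7% and 21.8% of all genes were. With SNS-314 51 were higher and 19 lower, 30.7% and 11.4%, against 22.3% and 23% of all genes. The members' median change was 0.09 in AZD1152 and 0.11 in SNS-314, against -0.0021 and -0.0065 over all genes. Among the 126 members above background in the control, 32 were higher and 22 lower with AZD1152 (25.4% and 17.5%) and 35 and 17 with SNS-314 (27.8% and 13.5%), with medians of 0.04 for each inhibitor. Both inhibitors are set against the same 4 controls. With both, 41 members were higher (24.7%) and 17 lower (10.2%), against 18.0% and 19.2% of all genes, and 0 members were called in opposite directions. Of the 41, 27 were above background on at least 3 controls, 9 on 1 or 2, and 5 (SLC7A11, SLC22A15, SLC24A3, SLC25A42 and SLC29A2, the last named after its values were seen) on none.

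At earlier times fewer members were called, and higher calls did not outnumber lower ones. At 6 h 4 members were higher (2.41%) and 5 lower (3.01%) with AZD1152, where 1.20% and 1.49% of all genes were, and 3 (1.81%) and 4 (2.41%) with SNS-314, where 1.93% and 1.79% were. At 12 h 3 members were higher (1.81%) and 10 lower (6.02%) with AZD1152, where 1.45% and 2.83% of all genes were. With SNS-314 3 were higher (1.81%) and 11 lower (6.63%), where 1.94% and 3.63% were, and without the 3 arrays that stood apart 3 and 8, where 1.59% and 2.38% were. At 18 h 14 were higher (8.43%) and 18 lower (10.8%) with AZD1152, where 7.98% and 9.72% of all genes were, and 9 (5.42%) and 10 (6.02%) with SNS-314, where 4.08% and 5.64% were. Without the 3 arrays the AZD1152 counts at 18 h were 5 higher (3.01%) and 13 lower (7.83%), where 2.95% and 4.49% of all genes were. At 24 h 15 were higher (9.04%) and 16 lower (9.64%) with AZD1152, where 7.56% and 9.20% were, and 22 (13.3%) and 24 (14.5%) with SNS-314, where 9.09% and 10.7% were. Of the 126 members above background in the control, 10 were higher (7.94%) and 15 lower (11.9%) at 24 h with AZD1152. With SNS-314 16 of them were higher (12.7%) and 21 lower (16.7%). Over the 10 comparisons with 0 h, 107 members (64.5%) were called at least once, against 60.6% of all genes. With both inhibitors 41 members (24.7%) were called at 48 h and at no earlier time, against 25.2% of all genes.

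**Figure D1:**
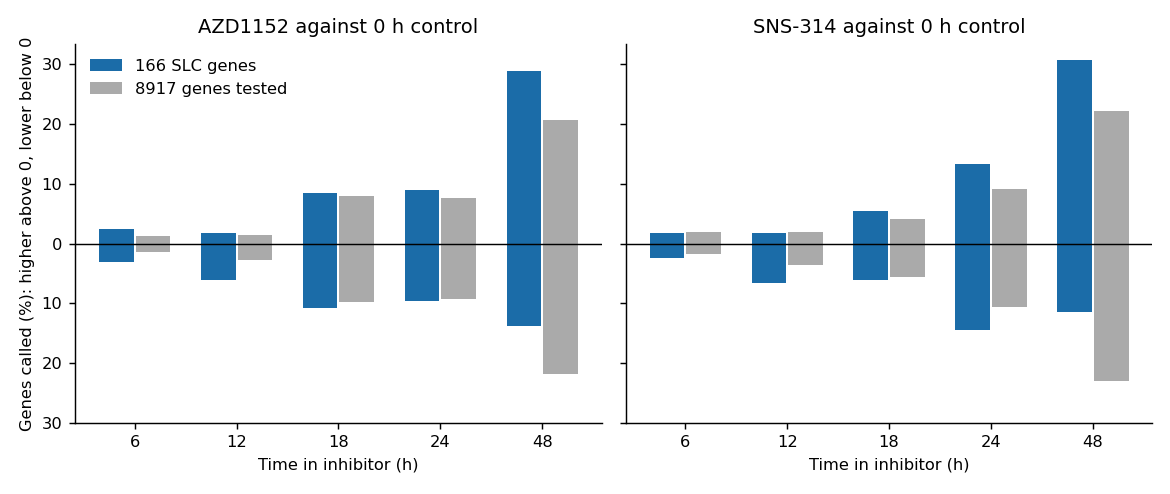
Percentage of genes called higher (above 0) or lower (below 0) against the 0 h control by time in AZD1152 (left) and SNS-314 (right), for the 166 SLC genes (blue) and all 8917 genes tested (grey). At 48 h the SLC bars reach 28.9% and 30.7% higher and 13.9% and 11.4% lower, while the grey bars are of near equal length in both directions.

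The change from 6 h to 48 h does not use the control. Within AZD1152 53 members were higher at 48 h than at 6 h and 23 were lower, where 21.2% and 20.8% of all genes were. Within SNS-314 54 were higher and 24 lower, where 22.9% and 23.2% of all genes were. Of the 126 members above background in the control, 37 were higher and 22 lower in AZD1152 (29.4% and 17.5%), and 37 and 21 in SNS-314 (29.4% and 16.7%). The codes of the table's columns end in a number that up to 12 arrays share, which was read as the chip. The controls lay on chips 2 and 3, with 2 on each, and each 48 h group had 2 arrays on chip 1 and 1 on each of chips 2 and 3. On chips 2 and 3 alone each 48 h group has 1 array, so only effect sizes are given. The members' median change at 48 h with AZD1152 was 0.11 on chip 2 and 0.12 on chip 3, against 0.0040 and 0.0020 over all genes. With SNS-314 it was 0.09 and 0.13, against 0.0026 and 0.0067. Of all 166 members, called or not, 60.8% to 63.9% lay above 0 in these 4 comparisons, against 50.2% to 50.5% of all genes. These medians and shares include the 40 members that passed the filter only through treated groups, which can raise them. They were not computed for the 126 alone.

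By family, the members called with both inhibitors at 48 h were 6 higher and 1 lower of 17 amino acid genes (SLC1, SLC3, SLC7 and SLC38), 2 and 1 of 6 in the glucose family SLC2, and 3 and 6 of 28 in the mitochondrial family SLC25. The median changes with AZD1152 and SNS-314 were 0.25 and 0.20 in the amino acid families, 0.05 and -0.04 in SLC2, and -0.13 and -0.14 in SLC25. These medians include members that passed the filter only through treated groups, which can raise them. Only 12 of the 17 amino acid members were above background on at least 3 controls, and no family median is given for such members alone. Carriers of nucleotide sugars and sugar phosphates had 8 higher and 3 lower of 24. Those of vitamins, nucleosides and organic ions had 7 higher and 0 lower of 16. Metal carriers had 4 and 1 of 21, carriers of ions and pH 2 and 1 of 20, monocarboxylate carriers 1 and 0 of 4, and the remaining families 8 and 4 of 30. Of all genes, 18.0% were higher and 19.2% lower with both inhibitors. Among members above background on at least 3 controls the counts were 4 higher and 1 lower of 12 in the amino acid families, 2 and 1 of 6 in SLC2, 2 and 5 of 24 in SLC25, 6 and 3 of 21 nucleotide sugar carriers and 5 and 0 of 10 carriers of vitamins, nucleosides and organic ions. Among the same members, metal carriers had 3 and 1 of 16 and carriers of ions and pH 0 and 1 of 12. Monocarboxylate carriers had 0 and 0 of 3, and the remaining families 5 and 4 of 22. These counts are descriptions, and the families were not tested against each other. The groups follow family numbers alone, so some of their genes carry other substances or are no transporters (such as SLC7A5P2, SLC7A6OS and SLC4A1AP). The multivitamin carrier SLC5A6 is counted in the remaining families.

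**Figure D2:**
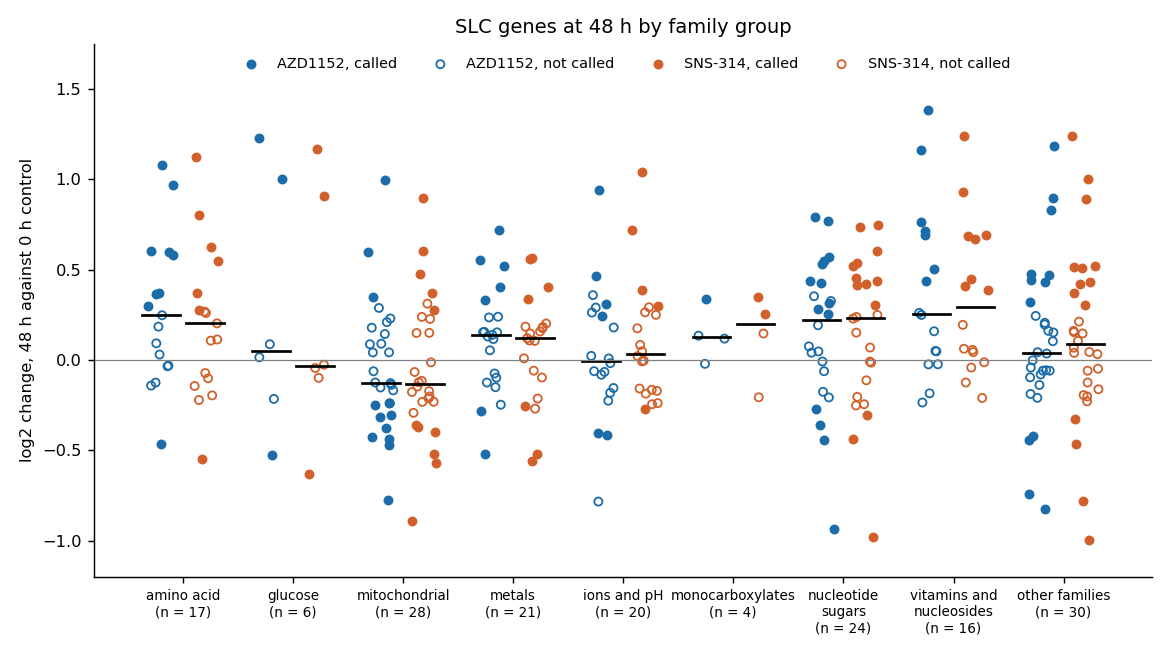
Log2 change of each of the 166 SLC genes at 48 h against the 0 h control, by family group, with AZD1152 in blue and SNS-314 in orange. Filled points were called, open points were not, and black bars are medians, which lie above 0 for amino acid genes (0.25 and 0.20) and below 0 for mitochondrial genes (-0.13 and -0.14). The medians include members that passed the filter only through treated groups, which can raise them.

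SLC7A11 encodes the light chain of the antiporter that imports cystine in exchange for glutamate and so feeds glutathione synthesis. Its levels in the controls were 7.75, 8.19, 7.28 and 7.78, none above background. At 48 h they were 8.99, 9.07, 8.63 and 8.62 under AZD1152 and 8.84, 9.03, 8.95 and 8.66 under SNS-314, above background on every one of these arrays. No 48 h array overlapped the controls. At 24 h it had already been called with each inhibitor (adjusted p = 0.0219 and 0.0197), with 1 array above background in each. At 48 h the gene was at least 1.13-fold higher with AZD1152 (limma, adjusted p = 9.15e-09) and at least 1.17-fold higher with SNS-314 (adjusted p = 3.57e-09), taken against the background level and not the dim control signal. SLC7A11 passed the filter only through its 48 h groups, where it was high, so these p-values are descriptions. Its partner SLC3A2, the heavy chain that carries SLC7A11 and SLC7A5 to the cell surface, changed by 0.30 ± 0.12 (SE) with AZD1152 (adjusted p = 0.044) and by 0.26 ± 0.12 with SNS-314, which was not called (adjusted p = 0.0746). A dimmer second probe of SLC3A2 gave 0.92 and 0.81 and was called with both, and the probe read here lost its AZD1152 call without any 1 of 6 of the 8 arrays compared.

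Of the 9 measured genes of families SLC1 and SLC38, SLC1A4, SLC1A5, SLC38A1, SLC38A2 and SLC38A10 were higher with both inhibitors at 48 h, SLC1A3 was lower with both, and SLC38A6, SLC38A7 and SLC38A12, named after their values were seen, were not called with both. SLC38A1 (SNAT1) read 10.71, 10.46, 9.89 and 10.51 in the controls, 11.41, 11.43, 11.13 and 11.48 with AZD1152 at 48 h, and 11.26, 11.46, 10.65 and 10.69 with SNS-314. The AZD1152 arrays all lay above the controls, while 2 SNS-314 arrays overlapped them. The changes were 0.97 ± 0.17 (adjusted p = 9.86e-06) and 0.62 ± 0.17 (adjusted p = 0.00259). SLC1A5 (ASCT2), the main glutamine importer of many tumour cells, rose from 10.05, 10.18, 10.16 and 10.14 to 10.74, 10.36, 10.90 and 10.94 with AZD1152 and to 10.90, 11.09, 10.68 and 11.08 with SNS-314, with no overlap. Its changes were 0.60 ± 0.14 (adjusted p = 0.000648) and 0.80 ± 0.14 (adjusted p = 1.21e-05). SLC38A2 (SNAT2), which amino acid starvation is known to induce, rose by 0.60 and 0.55, SLC1A4 (ASCT1) by 0.58 and 0.37, and SLC38A10 by 0.37 and 0.27. The smallest of these, SLC38A10 with SNS-314, had an adjusted p of 0.0137 and was lost under 75th percentile scaling and without SNS-314 48 h replicate 4 (adjusted p up to 0.0685). The SLC1A4 call with SNS-314 was lost without control replicate 4 (adjusted p = 0.0534).

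SLC38A2 also had the smallest adjusted p of all members between the inhibitors. At 18 h it read 8.69, 9.66, 9.59 and 9.28 under AZD1152 and 10.17, 9.78, 9.45 and 10.18 under SNS-314, against 10.04, 9.86, 9.99 and 9.92 in the controls. The AZD1152 change of -0.65 was called (adjusted p = 0.00262), but its lowest arrays are the 2 that stood apart, and without the 3 such arrays it was -0.32 (adjusted p = 0.181). SLC1A5, called higher with AZD1152 at 18 h (0.48), likewise changed by 0.20 without them (adjusted p = 0.414).

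Other amino acid genes moved early or fell. SLC7A5 (LAT1), the carrier of large neutral and branched-chain amino acids, read 13.06, 13.11, 12.88 and 13.04 in the controls and at 6 h 13.46, 13.65 and 13.51 under AZD1152 and 13.56, 13.57 and 13.46 under SNS-314. All 6 h arrays lay above the controls. It was higher by 0.52 ± 0.11 (adjusted p = 0.00233) and 0.51 ± 0.11 (adjusted p = 0.00232), and was called at no later time. SLC7A1 (CAT1), the carrier of arginine and lysine, read 13.28, 13.26, 13.18 and 13.34 in the controls and at 24 h 12.59, 12.60, 12.66 and 12.55 under AZD1152 and 12.66, 12.63, 12.65 and 12.45 under SNS-314. No 24 h array reached the controls, and the change was -0.66 ± 0.12 for each inhibitor (adjusted p = 8.69e-05 and 7.86e-05). At 48 h it was -0.03 and -0.22, and was called with neither. SLC1A3 (EAAT1), a glutamate importer, was the member of these families that was lower at 48 h, by -0.47 ± 0.11 (adjusted p = 0.00087) and -0.55 ± 0.11 (adjusted p = 0.000125). The pseudogene SLC7A5P2 was called in none of the 10 comparisons, and a probe may not tell it apart from its parent gene SLC7A5.

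Amino acid shortage and stress of the endoplasmic reticulum act through the transcription factor ATF4, which with C/EBP partners binds an element of the letters TGATGNAA. These letters were sought on both strands (TTNCATCA on the other) from 250 bases before to 50 after the start site in RefSeq promoter sequences of GRCh38.p14, which held 138 of the 166 members. They occurred in 3.62% of all 35116 windows of that length, in 206 of 7335 genes measured here (2.81%) and in 9 of 138 members (6.52%). SLC7A11 and SLC2A3 had no entry among these sequences and were not searched. Of the 14 amino acid members with a window, 6 held a match, and they are printed because they include genes that rose and genes that did not. Each runs 5′ to 3′ along the gene's strand with the match in capitals and the rest in lower case.
SLC1A4 (chr2:64989381-64989410, plus strand, match from -7): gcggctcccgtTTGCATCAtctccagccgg
SLC1A5 (chr19:46784893-46784922, minus strand, match from -97): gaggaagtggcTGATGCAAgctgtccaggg
SLC38A1 (chr12:46266502-46266531, minus strand, match from -4): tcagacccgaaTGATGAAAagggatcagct
SLC3A2 (chr11:62881725-62881748, plus strand, match from 38): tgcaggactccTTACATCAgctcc
SLC1A3 (chr5:36596357-36596386, plus strand, match from -220): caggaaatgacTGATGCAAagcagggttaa
SLC7A1 (chr13:29595663-29595692, minus strand, match from 8): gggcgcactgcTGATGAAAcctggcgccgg

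At 48 h SLC1A4, SLC1A5 and SLC38A1 were higher with both inhibitors and SLC3A2 with AZD1152, whereas SLC1A3 was lower with both and SLC7A1 was called with neither. Among members with a window, 3 of 33 higher with both inhibitors held the letters, 1 of 15 lower with both, and 5 of 90 others. A match is a stretch of letters in this window and shows no binding.

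A list of 25 genes known to respond to ATF4, SLC genes aside, had 22 measured. The list was chosen with earlier results of these data known. At 48 h 17 were higher with AZD1152 and 18 with SNS-314, where 20.7% and 22.3% of all genes were. None were lower, and the medians were 0.99 and 0.86. ATF4 itself was higher by 1.32 ± 0.12 and 1.15 ± 0.12, ASNS, which makes asparagine, by 1.90 ± 0.14 and 1.85 ± 0.14, and TRIB3, a feedback inhibitor of ATF4, by 2.46 ± 0.17 and 2.21 ± 0.17. At 6 h 1 and 2 of the 22 were higher, where 1.20% and 1.93% of all genes were. With AZD1152 at 18 h, arrays that stood apart included, 4 were higher and 4 lower, where 7.98% and 9.72% of all genes were. With SNS-314 at 18 h 6 were higher and 1 lower, where 4.08% and 5.64% were. At 24 h 5 and 4 were higher, where 7.56% and 9.09% were, and 2 and 1 lower, where 9.20% and 10.7% were. Of 7 measured genes of amino acid use, GOT1, an aspartate aminotransferase, was higher with both (0.60 and 0.47), and GOT2 (-0.26 and -0.26) and GCLM (-0.48 and -0.50), a subunit of the enzyme that starts glutathione synthesis, were lower with both. BCAT2 was lower with SNS-314 alone (-0.31), and that difference between the inhibitors was not examined. Of 9 measured partners and relatives of solute carriers, 0 were called with both inhibitors at 48 h, while CTNS was higher with AZD1152 (0.35) and MPC1 with SNS-314 (0.28). Over all genes, 18.0% were higher and 19.2% lower with both inhibitors at 48 h.

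In the glucose family SLC2A1 was high early and SLC2A3 late. SLC2A1 (GLUT1), the basal glucose importer, read 11.09, 11.10, 11.34 and 11.27 in the controls and at 6 h 11.80, 11.96 and 11.96 under AZD1152 and 11.85, 12.05 and 12.00 under SNS-314. It was higher by 0.71 ± 0.12 (adjusted p = 0.000135) and 0.77 ± 0.12 (adjusted p = 2.84e-05), with no overlap. It was called higher with a single inhibitor at 12 h, with neither at 18 h and with both again at 24 h (0.37 and 0.43). At 48 h it read -0.22 and -0.10 from the control, not called. Between 6 h and 48 h it was lower by -0.92 ± 0.12 in AZD1152 (adjusted p = 5.11e-08) and -0.87 ± 0.12 in SNS-314 (adjusted p = 1.79e-07).

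SLC2A3 (GLUT3), a high-affinity glucose importer, read between 9.95 and 10.08 in the 4 controls. At 18 h it was higher by 0.63 (0.47 without the arrays that stood apart) and 0.51, and at 24 h by 0.81 and 0.85. At 48 h it read 11.39, 11.11, 11.30 and 11.20 under AZD1152 and 11.56, 11.10, 10.98 and 11.11 under SNS-314, all above every control. The changes of 1.23 ± 0.11 (adjusted p = 6.88e-12) and 1.17 ± 0.11 (adjusted p = 2.27e-11) are 2.34-fold and 2.25-fold. SLC2A10 (GLUT10) was called higher with a single inhibitor at 12 h. It was called with both inhibitors at 18 h (0.28 each, and 0.25 with an adjusted p of 0.17 in AZD1152 without the arrays that stood apart). At 24 h it was called with SNS-314 (0.28) and not with AZD1152 (0.20), and at 48 h it rose to 12.08, 11.58, 11.95 and 12.00 and to 11.89, 12.02, 11.76 and 11.59 from 10.92, 10.87, 10.92 and 10.90. Its changes were 1.00 ± 0.09 (adjusted p = 2.28e-12) and 0.91 ± 0.09 (adjusted p = 2.41e-11).

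SLC2A6 (GLUT6), a carrier of internal membranes named after its values were seen, went down and came back. It read 9.81, 9.92, 10.05 and 9.96 in the controls, 9.24, 9.20, 9.06 and 9.36 at 18 h with AZD1152, and 9.30, 9.45, 9.28 and 9.40 under SNS-314. No 18 h array reached the controls. The 18 h changes were -0.72 ± 0.11 (adjusted p = 5.12e-06, and -0.80 without the arrays that stood apart) and -0.58 ± 0.11 (adjusted p = 0.000252). At 48 h they were 0.09 and -0.03, not called. SLC2A8 (GLUT8) was called at no time and changed by at most 0.15. The lower call of the family at 48 h is SLC2A4RG, which is no transporter but a DNA-binding regulator named after SLC2A4, and it changed by -0.53 ± 0.10 and -0.63 ± 0.10 (adjusted p = 1.77e-05 and 6.05e-07).

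**Figure D3:**
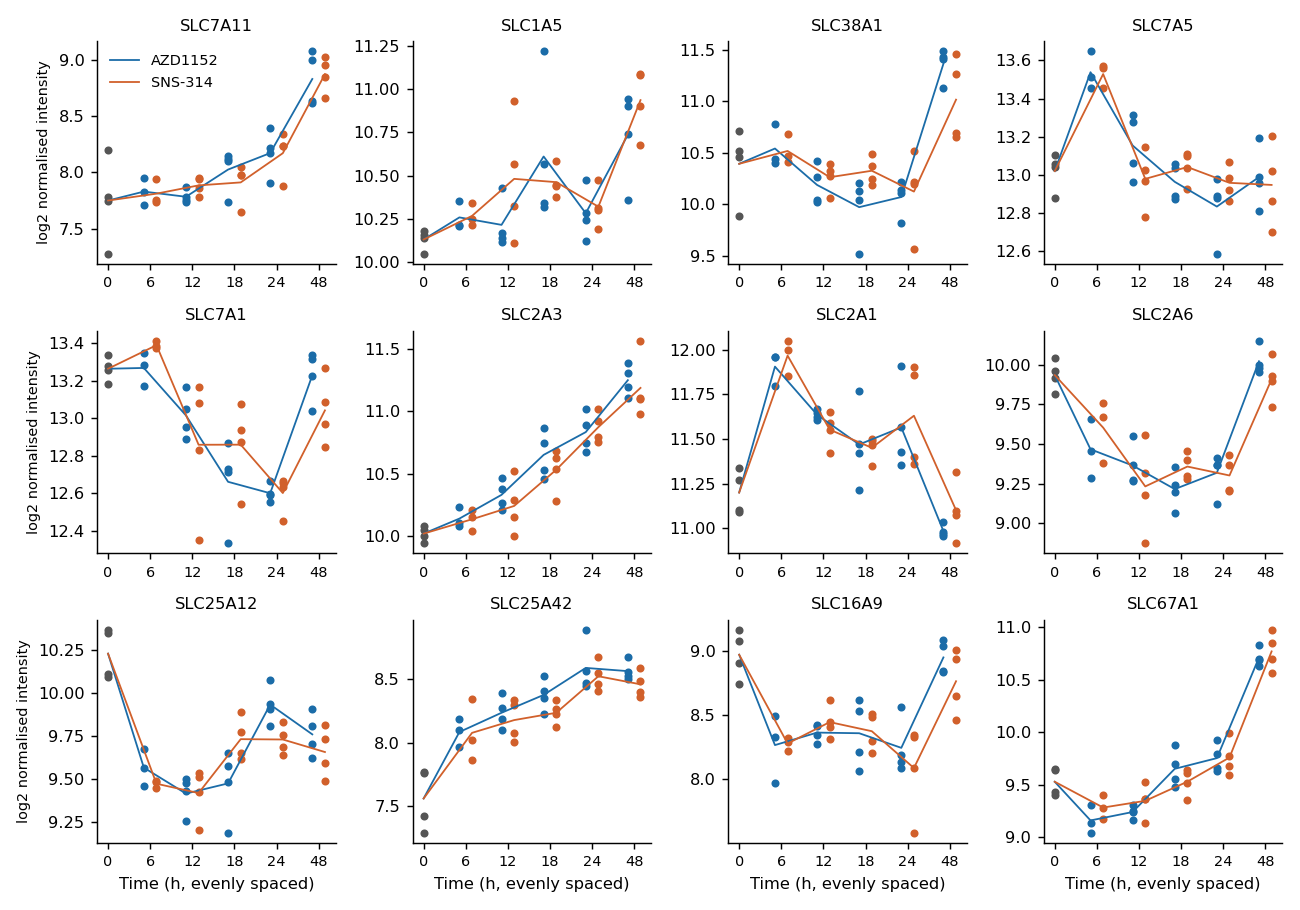
Log2 normalised intensity of 12 SLC genes on every array (points) with group means (lines), for the 0 h control (grey), AZD1152 (blue) and SNS-314 (orange), with the time points evenly spaced. SLC2A3 and SLC67A1 are highest at 48 h, SLC7A5 and SLC2A1 peak at 6 h, and SLC7A1, SLC2A6 and SLC16A9 are low at 24 h and back near the control at 48 h. The control arrays of SLC7A11 and SLC25A42 were not above background.

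Mitochondrial carriers held the 2 members called in all 10 comparisons with 0 h. The share of all genes called in all 10 was not computed. SLC25A12 (aralar), the aspartate and glutamate carrier of the malate-aspartate shuttle, read 10.35, 10.36, 10.09 and 10.11 in the controls and at 6 h 9.67, 9.57 and 9.46 under AZD1152 and 9.48, 9.49 and 9.45 under SNS-314. No 6 h array reached the controls. It was lower by -0.66 ± 0.11 (adjusted p = 3.42e-05) and -0.76 ± 0.11 (adjusted p = 2.23e-06) at 6 h, by -0.81 with each inhibitor at 12 h, and by -0.47 ± 0.10 and -0.57 ± 0.10 at 48 h.

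SLC25A42 carries coenzyme A and adenine nucleotides into mitochondria. Its controls read 7.77, 7.76, 7.29 and 7.42, none above background. At 6 h it read 8.18, 7.97 and 8.10 under AZD1152 and 8.02, 7.87 and 8.34 under SNS-314, also none above background, and at 48 h 8.67, 8.49, 8.53 and 8.55 and 8.59, 8.36, 8.48 and 8.40, with 3 of 4 arrays above in each. All treated arrays quoted lie over all controls. The tests gave adjusted p = 0.00479 and 0.00443 at 6 h and 5.23e-10 and 7.01e-09 at 48 h, but no fold can be stated, since the bound against background is under 1. SLC25A42 passed the filter only through treated groups, the 48 h groups among them, so its 48 h p-values are descriptions. The SNS-314 call at 6 h was lost without SNS-314 6 h replicate 3 and when the fit held no other groups, and the highest adjusted p over the alternatives was 0.113.

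The other mitochondrial genes called with both inhibitors at 48 h were SLC25A36, a pyrimidine nucleotide carrier (0.60 and 0.47), and SLC25A20, which imports acylcarnitines for fatty acid oxidation (0.35 and 0.37), both higher, and 5 that were lower. SLC25A10, the dicarboxylate carrier, read 9.09, 9.14, 9.26 and 9.37 in the controls, 8.13, 8.63, 8.47 and 8.52 under AZD1152, and 8.24, 7.94, 8.41 and 8.70 under SNS-314. The groups did not overlap, and the changes were -0.78 ± 0.15 (adjusted p = 7.51e-05) and -0.89 ± 0.15 (adjusted p = 8.36e-06). SLC25A17, a carrier of the peroxisome, changed by -0.44 and -0.37, SLC25A25, an ATP-magnesium and phosphate carrier, by -0.30 and -0.52, and SLC25A28 (mitoferrin-2), which imports iron, by -0.32 and -0.36. The fifth is SLC25A15, the ornithine carrier, named after its values were seen (-0.24 and -0.40). The SLC25A25 call with AZD1152 was lost under 7 alternatives, with adjusted p up to 0.113, that of SLC25A28 under 3, up to 0.0655, and that of SLC25A20 without AZD1152 48 h replicate 4 (adjusted p = 0.0506). For SLC25A24, named after its values were seen, the brightest probe read 0.06 and -0.09 at 6 h while a second probe read -1.60 and -1.47, so its level at 6 h is uncertain. SLC25A5, the ADP/ATP carrier of growing cells, was called at no time and read 14.38 to 14.59 with AZD1152 at 48 h against 14.57 to 14.86 in the controls.

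Among monocarboxylate carriers, SLC16A9 (MCT9) was low from 6 h to 24 h. It read 9.08, 9.16, 8.74 and 8.90 in the controls and 8.49, 8.33 and 7.98 at 6 h with AZD1152, a change of -0.70 ± 0.15 (adjusted p = 0.00255). Its 6 h arrays with SNS-314, at 8.22, 8.29 and 8.33, were not above background, so it was at least 1.37-fold lower (adjusted p = 0.00252). At 24 h it was -0.73 and -0.88 from the control and at 48 h -0.02 and -0.21, not called. From 6 h to 48 h it rose by 0.68 ± 0.15 in AZD1152 (adjusted p = 0.00027) and was at least 1.19-fold higher in SNS-314 (adjusted p = 0.00747). Without AZD1152 6 h replicate 3 the AZD1152 call at 6 h was lost (adjusted p = 0.082).

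SLC5A6, the sodium-dependent multivitamin carrier of biotin and pantothenate, had a like course. It read 12.36, 12.36, 12.38 and 12.46 in the controls and at 6 h 11.81, 11.92 and 11.87 under AZD1152 and 11.65, 11.70 and 11.94 under SNS-314, all below the controls. It was lower by -0.52 ± 0.11 (adjusted p = 0.00136) and -0.63 ± 0.11 (adjusted p = 7.52e-05), and at 48 h it was -0.06 and 0.04 from the control, not called. In all, 10 members were called with both inhibitors at an earlier time and with neither at 48 h. Beside SLC2A1, SLC2A6, SLC5A6, SLC7A1, SLC7A5 and SLC16A9 they were SLC15A4 (lysosomal histidine and peptide carrier), SLC25A37 (mitoferrin-1), SLC46A1 (folate carrier) and SLC6A15 (neutral amino acid carrier), named after their values were seen and all lower at those times. The share of all genes with such a course was not computed, so the count of 10 is a description.

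Several carriers of other families changed by about as much as SLC2A3. SLC67A1, formerly SLC22A18, of the imprinted region on chromosome 11, read 9.65, 9.64, 9.43 and 9.40 in the controls, 10.69, 10.83, 10.70 and 10.63 at 48 h with AZD1152, and 10.70, 10.97, 10.56 and 10.85 under SNS-314. The 48 h arrays stood clear of the controls, with changes of 1.18 ± 0.10 (adjusted p = 1.62e-12) and 1.24 ± 0.10 (adjusted p = 3.35e-13), 2.27-fold and 2.36-fold. It was not called at any earlier time, and from 6 h to 48 h it was higher by 1.55 and 1.49. Its antisense neighbour SLC67A1-AS, named after its values were seen, was higher from 18 h on and by 0.43 and 0.51 at 48 h.

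SLC22A15, of the organic ion family, read 8.30, 8.17, 7.66 and 7.81 in the controls, none above background. At 48 h it read 9.24, 9.50, 9.38 and 9.34 under AZD1152 and 9.44, 9.40, 9.09 and 8.99 under SNS-314, and was above background on every one of these arrays. It was at least 1.65-fold and 1.49-fold higher (adjusted p = 3.95e-11 and 5.23e-10). This gene too passed the filter only through its 48 h groups, so these p-values are descriptions. SLC33A1, which moves acetyl-CoA into the endoplasmic reticulum, read 10.73, 10.62, 10.41 and 10.60 in the controls and 11.74, 11.55, 11.78 and 11.92 at 48 h with AZD1152. With SNS-314 it read 11.74, 11.13, 11.58 and 11.62, and no array of either inhibitor overlapped the controls. Its changes were 1.16 ± 0.13 (adjusted p = 4.45e-10) and 0.93 ± 0.13 (adjusted p = 8.15e-08).

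SLC5A3, the sodium and myo-inositol carrier that cells use against osmotic stress, was higher by 0.89 ± 0.12 and 1.00 ± 0.12 at 48 h, and by 0.47 and 0.64 at 24 h. SLC22A17, a receptor for lipocalin-2, was higher by 0.76 and 0.69, and SLC10A7 by 0.83 and 0.89. SLC24A3, a potassium-dependent sodium and calcium exchanger, exceeded background in 3 of 4 samples per inhibitor at 48 h and in 0 controls, with adjusted p = 2.21e-05 and 4.07e-06 and no fold to state. Only these 48 h groups let SLC24A3 pass the filter, so its p-values are descriptions. Vitamin and nucleoside carriers named after their values were seen included SLC23A2, the ascorbate carrier (0.69 and 0.67), SLC44A2, a choline carrier (0.51 and 0.41), and SLC29A4, a monoamine carrier (0.44 and 0.45).

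In the secretory pathway, SLC35F5 was higher with both inhibitors at 12, 18, 24 and 48 h (at 12 h with SNS-314 adjusted p = 0.0735 without the arrays that stood apart), reaching 0.79 ± 0.12 and 0.75 ± 0.12 (adjusted p = 5.08e-07 and 1.33e-06). SLC35A2, which brings UDP-galactose into the Golgi and was named after its values were seen, was higher by 0.77 and 0.53. SLC35G1 read 8.93, 9.07, 8.78 and 9.03 in the controls, 8.22, 7.85, 8.01 and 7.98 at 48 h with AZD1152, where 1 array was above background, and 8.15, 7.98, 7.90 and 7.86 with SNS-314, where none was. The groups did not overlap. It changed by -0.94 ± 0.11 with AZD1152 (adjusted p = 3.21e-09) and was at least 1.57-fold lower with SNS-314 (adjusted p = 1.00e-09). SLC37A4, which carries glucose 6-phosphate into the endoplasmic reticulum, was lower by -0.44 with each inhibitor, and SLC35B2, the carrier of the sulfate donor of the Golgi, was among the 4 steadiest members.

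Other members that were lower at 48 h were SLC43A3, a purine nucleobase carrier, with -0.82 ± 0.15 and -1.0 ± 0.15 (adjusted p = 1.49e-05 and 4.63e-07), and SLC45A3 (prostein), with -0.74 ± 0.11 and -0.78 ± 0.11 (adjusted p = 1.93e-07 and 6.06e-08). SLC43A3 read 10.79, 10.53, 10.59 and 10.54 in the controls, 9.53, 9.73, 9.96 and 9.95 under AZD1152 and 9.57, 9.61, 9.58 and 9.72 under SNS-314, without overlap. SLC66A2 was lower by -0.45 and -0.46, SLC71A2 by -0.42 and -0.33, and SLC4A2, a chloride and bicarbonate exchanger, by -0.42 and -0.27. The dimmer kept probes of SLC71A2 read -0.19, -0.23 and -0.02 with AZD1152, none called. With SNS-314 they read -0.17, -0.28 and -0.13, and only -0.28 was called. The SNS-314 call of SLC4A2 had an adjusted p of 0.0486 and was lost under 11 alternatives, with adjusted p up to 0.216, and that of SLC71A2 under 5, up to 0.0939, fits of 1 chip alone not counted in either.

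Of the metal carriers, SLC39A1 (ZIP1), a zinc importer of the cell surface, fell from 12.54, 12.62, 12.44 and 12.57 to 12.05, 12.05, 11.93 and 12.07 with AZD1152 and to 12.11, 11.94, 11.82 and 12.21 with SNS-314, without overlap. The change was -0.52 ± 0.12 with each (adjusted p = 0.000309 and 0.000277). The 4 metal genes called higher with both inhibitors, named after their values were seen, were the zinc carriers SLC30A5 (0.72 and 0.57) and SLC39A10 (0.56 and 0.41), the copper importer SLC31A1 (0.52 and 0.56) and the magnesium carrier SLC41A2 (0.40 and 0.34). A dimmer second probe of SLC30A5 read 0.37 and 0.21 and was called with AZD1152 alone. SLC11A2 (DMT1), an iron and manganese importer also named after its values were seen, read 9.66, 9.75, 9.53 and 9.46 in the controls and 8.70, 8.75, 8.93 and 8.93 at 18 h with AZD1152. It was called lower at 6 h with AZD1152 alone, and was lower at 12, 18 and 24 h with both inhibitors, by -0.53 to -0.77. At 48 h it was lower by -0.56 with SNS-314, while -0.25 with AZD1152 was not called.

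SLC39A14 (ZIP14) and the zinc exporter SLC30A1 (ZnT1), which zinc itself induces, were called with neither inhibitor at 48 h. SLC39A14 was called lower at 6 h with SNS-314 (-0.47, adjusted p = 0.0482), a call lost under 11 alternatives, with adjusted p up to 0.24, and at 12 h with AZD1152 (-0.48). Of the metallothioneins and their regulator MTF1, which bind and sense zinc, 5 of 9 were measured. MT1E was lower at 48 h (-0.39 and -0.47), the other 4 were not called, and the medians were 0.05 and 0.06. At 24 h 2 of the 5 were lower with each inhibitor, where 9.20% and 10.7% of all genes were, and the medians were -0.35 and -0.25.

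**Figure D4:**
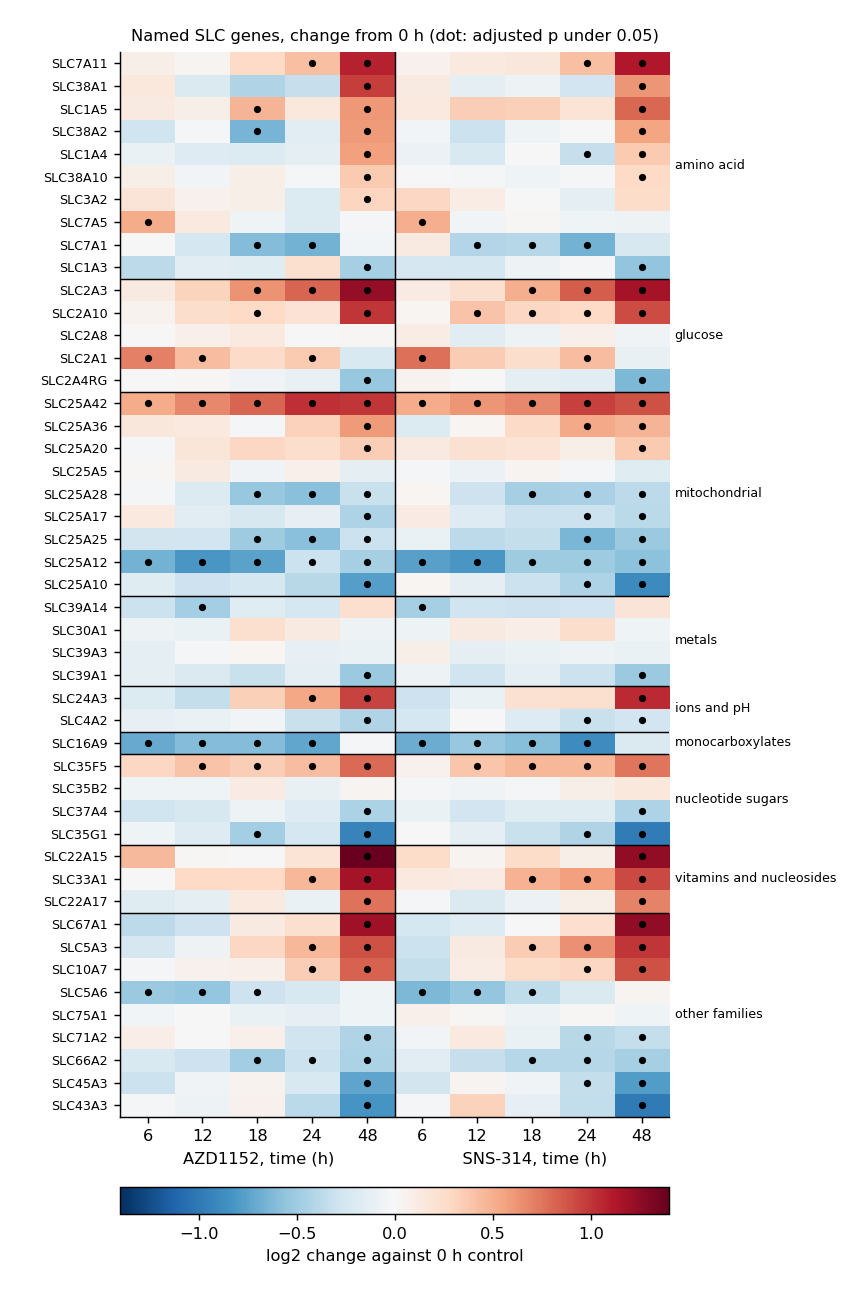
Log2 change against the 0 h control for 47 SLC genes named by rule (rows, by family group and sorted by the change at 48 h) over the 10 comparisons (columns), red for higher and blue for lower, with a dot where the adjusted p was under 0.05. Dots are most frequent in the 48 h columns. For SLC7A11, SLC22A15, SLC24A3 and SLC25A42 the control was not above background, so that the colour shows the fitted value and no measured fold.

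AZD1152 and SNS-314 were given at different doses. Between them limma called 0 members at 6, 12, 18, 24 and 48 h, where 0%, 0%, 0.0336%, 0% and 0% of all genes were called. At an unadjusted p under 0.05 there were 4, 16, 16, 8 and 6 members, or 2.41%, 9.64%, 9.64%, 4.82% and 3.61%, where 3.12%, 6.47%, 11.8%, 3.32% and 3.02% of all genes passed. The 95% intervals of the difference had a median width of 0.26 to either side at 6 h and 0.23 at later times, and lay within 1 log2 unit of 0 for 165 or 166 of the 166 members. These widths are medians over members, from the fit without chip or replicate terms. An estimated difference smaller than the gene's own width does not reach an unadjusted p under 0.05. The intervals are not adjusted for the number of genes, so larger differences could be missed too.

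For SLC38A2 at 18 h the difference was -0.59 (95% interval -0.90 to -0.28, adjusted p = 0.179), and without the 3 arrays that stood apart it was -0.27 (adjusted p = 1). For SLC38A1 at 48 h it was 0.35 (0.01 to 0.69, adjusted p = 1), for SLC7A11 -0.04 (-0.31 to 0.22), for SLC2A3 0.06 (-0.17 to 0.29) and for SLC67A1 -0.06 (-0.27 to 0.15). The largest difference at 48 h, -1.05 for the bicarbonate carrier SLC4A5, named after its values were seen, comes from 1 array. AZD1152 replicate 4 read 6.64, while the other 3 read 10.42, 10.53 and 10.48 and the SNS-314 arrays 10.62, 10.43, 10.85 and 10.36.

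Some members hardly moved. The 4 above background on all arrays with the smallest changes over the 10 comparisons were SLC75A1 (formerly MFSD10), the zinc importer SLC39A3 (ZIP3), SLC2A8 and SLC35B2. SLC75A1 read 13.09, 13.06, 13.08 and 13.13 in the controls, 12.96, 13.07, 13.17 and 12.92 at 48 h with AZD1152, and between 12.93 and 13.12 with SNS-314. These arrays overlapped the controls, and the changes of -0.06 and -0.06 were not called (adjusted p = 0.65 and 0.64).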

How the data were processed

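RNA of 42 samples was measured on single-colour Illumina bead arrays. The first deposited table holds the intensity of 47312 probes on each array, and its name calls it not normalized. It has 2 contradictory header lines. Against the columns of the other deposited table, the second line named the closest one for 42 of 42 arrays and the first line for 1, so the second was taken. The second deposited table holds log2 values, and how the authors normalized them is not given in the sources used here. It served as an alternative.

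Intensities were background corrected (normexp, offset 50, no control probes), brought to common quantiles and log2 transformed with limma 3.58.1 (R 4.3.3). The tables hold no detection p-values, so background was set per array at its 95th percentile, from the mode and lower flank of the signal. A probe above it on at least 3 arrays of 1 group was kept (13481 probes), and each gene was read from its brightest kept probe. Symbols came from the platform annotation, updated through Entrez identifiers with RefSeq GRCh38.p14, which was used for names and promoter sequences only (30110 probes had 1 symbol, 8 several and 17194 none). Of the members 29 had more than 1 kept probe. Their probes differed in sign at 48 h for 5 genes with AZD1152 and 1 with SNS-314, with 0 called in opposite directions.

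A group-means model of all arrays gave 17 comparisons, each adjusted by Benjamini-Hochberg. The median SE of a change was 0.115, and the number of arrays limits the precision. Where no array of a group was above background, a fold is a bound against the background level. The scripts were tested on simulated data. Replicate numbers paired the inhibitors at 6, 12 and 24 h (residual r 0.150 to 0.424, same chip), and the 48 h and 6 h arrays of each inhibitor (0.103 to 0.250). No 2 arrays held identical values.

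Named genes were a fixed set of 16 known carriers, those with the largest changes called with both inhibitors at 48 h (up to 6 each way in the amino acid families, 3 in SLC2, 5 in SLC25 and 8 elsewhere) and 6 h (up to 4 each way), and the 4 steadiest. Rules for genes called between the inhibitors, or called in opposite directions at 6 h and 48 h, named none. The members and lists were chosen with earlier results of these data known. Alternatives tried were to skip background correction, to use the deposited log2 values, 75th percentile scaling, other probe filters, the mean over probes, robust variances, only the groups compared, chip or replicate as a block, each chip alone, and leaving out each array. The chip was read from the end of the column codes, and no label names it. Leaving out 3 arrays together was chosen after seeing the data.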

Additional observations from a re-analysis of the deposited data

Results flagged for a closer look

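Of 141 groups of 4 arrays (47 named genes in the control and in each inhibitor at 48 h), 8 held an array whose gap to the nearest other exceeded Dixon's 95% critical value, and chance flags about 1 in 20 groups. With AZD1152 at 48 h, SLC1A4 read 9.02 in replicate 3 and 9.21 to 9.23 in the others, SLC25A5 read 14.4 in replicate 1 (others 14.57 to 14.59), and SLC39A14 read 11.6 in replicate 3 (others 11.98 to 12.04). In the same group SLC24A3 read 8.54 in replicate 2 (others 8.38 to 8.39), SLC39A1 read 11.9 in replicate 3 (others 12.05 to 12.07), and SLC2A8 read 9.90 in replicate 1 (others 10.13 to 10.14). With SNS-314 at 48 h, SLC25A5 read 14.4 in replicate 4 (others 14.51 to 14.52) and SLC39A14 read 12.1 in replicate 2 (others 11.75 to 11.76). Without AZD1152 48 h replicate 3, SLC39A14 was called higher with AZD1152 at 48 h.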

How the results depend on the processing

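No count reversed, and apart from fits of 1 chip alone the counts of members called at 48 h stayed within 1.5 times under each alternative run, as did those of 48 h against 6 h. Counts at earlier times moved. Without the filter on dim probes they were 8 for AZD1152 and 9 for SNS-314 at 12 h (13 and 14 with it) and 17 and 30 at 24 h (31 and 46). The number of genes tested also changes with the filter. Over all genes the calls were 222 and 315 at 12 h (381 and 497) and 1194 and 1357 at 24 h (1494 and 1764). With probes above background on all arrays alone, SNS-314 had 4 at 6 h (7) and 8 at 12 h. All genes had 217 (332) and 354 (497). Chip as a fixed term gave 14 for AZD1152 at 6 h (9), where all genes had 343 (240). The replicate block, where numbers do not pair the controls, gave 13 for SNS-314 at 6 h and 49 for AZD1152 at 18 h (32). There all genes had 466 (332) and 2084 (1579). The block changed no count of a paired comparison by over 1.5 times. With only the groups compared, SNS-314 had 9 at 12 h and AZD1152 16 at 18 h, where all genes had 239 (497) and 549 (1579). Without the 3 arrays that stood apart AZD1152 had 18 at 18 h, where all genes had 663 (1579).

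Leaving out each array gave 5 to 11 for AZD1152 at 6 h (lowest without its replicate 3), 7 to 12 at 12 h (without its replicate 4), 22 to 39 at 18 h, 21 to 29 at 24 h and 59 to 71 at 48 h. For SNS-314 it gave 5 to 8, 9 to 19 (9 without its replicate 3, control replicate 2 or control replicate 4), 12 to 18 (12 without control replicate 4), 32 to 42 and 60 to 70. Between the inhibitors it gave 0 to 3 at 18 h (1 without AZD1152 replicate 2, 3 without replicate 3) and 0 at the other times. For 48 h against 6 h it gave 59 to 70 with AZD1152 and 61 to 76 with SNS-314. The causes were not tested, and counts over all genes are not given for these fits. Fits of 1 chip alone have 1 or 2 arrays a group and 1 or 2 residual degrees of freedom, and assume that a lone array varies like the others. On chips 2 and 3 AZD1152 had 0 and 0 members at 6 h, 1 and 0 at 12 h, 5 and 4 at 24 h and 40 and 39 at 48 h, and at 18 h 47 and 3, the first from replicate 1, which stood apart. SNS-314 had 3 and 1, 1 and 1, 1 and 2 (18 h), 11 and 8, and 44 and 43. For 48 h against 6 h chips 1, 2 and 3 gave 46, 40 and 30 under AZD1152 and 50, 40 and 42 under SNS-314. Between the inhibitors they gave 1 at 6 h on chip 1 and 22 at 18 h on chip 2, from the same replicate 1. On chip 3 SLC71A2 with SNS-314 at 48 h reversed to 0.029 (adjusted p = 0.91). For dim members signal over background limits what can be said of size.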
